A study of Homo sapiens with 3 samples.

Results

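The genes described here are 40 genes of mitosis and the spindle, chosen by a fixed list of symbols. The rule used no values, but earlier results of these data were known when the list was made. Of the 40, 38 had at least 1 probe set naming that gene alone in GEO's annotation of the array, with 63 probe sets in all, out of 11963 genes and 19070 probe sets so named. NUF2 and ANLN had none, so no array values are given for them, but their promoter windows are counted below. All cells were HEK293T, a line from human embryonic kidney made with adenovirus DNA and expressing SV40 large T antigen, and all were given dCas9VP160 by transient transfection. This protein is a Cas9 that no longer cuts DNA, fused to a strong activation domain, and it is brought to a promoter by a guide RNA. One group received sgTetOmut, a non-targeting control made by mutating sgTetO. Another received sgTetO, whose labelled target is the TetO promoter, and the last received sgIL1RN1~3, whose labelled target is the IL1RN promoter. Each group was 1 array, so there is no replicate error and no p-value, and any difference between guides is also a difference between 2 single transfections.

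Mitosis is driven by CDK1 bound to cyclin B. Other kinases, among them PLK1 and the Aurora kinases, then build the spindle, and a checkpoint of BUB and MAD proteins holds the cell until every kinetochore is attached. The anaphase-promoting complex with CDC20 next has cyclin B and securin destroyed, which frees separase to part the chromatids. Most of these genes are silent in resting cells and are transcribed late in the cell cycle, through the B-MYB and FOXM1 factors and the LIN54 subunit, which binds the CHR element. In proliferating cultures such as HEK293T they serve as a readout of dividing cells.

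The promoters of the members shared letters that the choice of genes had not used. RefSeq promoter windows (GRCh38.p14, 250 bases before to 50 bases after a gene start) were present for 33 of the 40 genes, in 45 windows of 300 bases. Of these 33 genes, 31 were measured on the array, and the others were NUF2 and ANLN. AURKA, BUB3, TTK, TPX2, BIRC5, UBE2C and FOXM1 were not in that table. The CHR element was searched as TTTGAA and the box of the NF-Y factor as CCAAT, on both strands, and no match of one overlapped a match of the other. TTTGAA was found in 26 of the 45 windows, or 57.8%, against 11.8% of the 14058 windows of genes on the array and 15.2% of all 35116 windows. CCAAT was found in 32 of 45 windows, or 71.1%, against 35.1% and 34.6%. Both stood together in 20 windows, or 44.4% of the 45, against 4.77% and 5.90%. Neither was found in 7, or 15.6%, against 57.8% of the windows of genes on the array. By gene, 23 of 33 had a window with TTTGAA, or 69.7%, against 15.6% of 9563 genes on the array. These shares are a description of the letters with no test, and they do not show that a factor binds.

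The following windows are those of the first 5 members in the list's order with TTTGAA and at least 2 CCAAT in 1 window. Such a combination was found in 10 of the 45 windows (22.2%, against 1.57% of the windows of genes on the array). The order and spacing of the matches differed between the printed windows. In the printed CDC25C window CCAAT or its reverse complement lay at -217, -200 and -12, and TTTGAA at 44. Counted from another RefSeq start of CDC25C, the same TTTGAA lay at -30 and a CCAAT reverse complement at -85. Positions thus depend on the start used. Capitals mark TTTGAA and CCAAT or their reverse complements, and each window runs 5′ to 3′ on the gene's own strand. CDK1 is at chr10:60778228-60778527 (+), CCNB2 at chr15:59104896-59105195 (+), CDC20 at chr1:43358731-43359030 (+), CDC25C at chr5:138331828-138332127 (-) and CENPA at chr2:26785806-26786105 (+).
CDK1: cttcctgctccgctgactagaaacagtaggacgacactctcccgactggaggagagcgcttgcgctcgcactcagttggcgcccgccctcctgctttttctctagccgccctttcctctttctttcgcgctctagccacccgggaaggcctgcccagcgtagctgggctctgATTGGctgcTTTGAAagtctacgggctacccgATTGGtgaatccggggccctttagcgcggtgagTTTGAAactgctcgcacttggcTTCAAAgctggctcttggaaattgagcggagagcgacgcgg
CCNB2: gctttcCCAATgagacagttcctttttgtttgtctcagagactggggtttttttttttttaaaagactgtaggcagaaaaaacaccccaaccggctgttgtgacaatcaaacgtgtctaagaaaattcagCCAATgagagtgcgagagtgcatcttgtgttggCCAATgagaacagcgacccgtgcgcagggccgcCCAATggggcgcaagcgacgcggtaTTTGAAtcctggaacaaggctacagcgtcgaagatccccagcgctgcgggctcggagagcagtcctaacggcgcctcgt
CDC20: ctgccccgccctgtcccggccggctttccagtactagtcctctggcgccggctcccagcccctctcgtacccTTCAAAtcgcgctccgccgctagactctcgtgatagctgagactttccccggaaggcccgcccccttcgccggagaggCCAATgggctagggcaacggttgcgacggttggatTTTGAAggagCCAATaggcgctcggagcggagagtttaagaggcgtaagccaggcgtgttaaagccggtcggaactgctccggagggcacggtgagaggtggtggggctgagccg
CDC25C: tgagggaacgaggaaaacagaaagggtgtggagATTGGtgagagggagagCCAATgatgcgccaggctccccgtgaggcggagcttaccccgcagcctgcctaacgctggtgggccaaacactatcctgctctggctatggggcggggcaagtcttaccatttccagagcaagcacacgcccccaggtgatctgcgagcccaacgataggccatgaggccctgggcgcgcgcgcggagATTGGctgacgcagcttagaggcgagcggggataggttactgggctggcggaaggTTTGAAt
CENPA: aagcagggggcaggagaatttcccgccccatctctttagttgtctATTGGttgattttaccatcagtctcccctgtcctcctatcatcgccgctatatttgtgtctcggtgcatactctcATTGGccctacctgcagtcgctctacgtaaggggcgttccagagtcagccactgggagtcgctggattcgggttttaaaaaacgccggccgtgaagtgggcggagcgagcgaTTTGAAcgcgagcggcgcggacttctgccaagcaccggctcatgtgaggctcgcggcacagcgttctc

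A further pair, PLK1 at chr16:23678639-23678938 (+) and KIF23 at chr15:69414099-69414398 (+), was chosen after the values were seen. It is shown because both windows hold 1 TTTGAA and 1 CCAAT or reverse complement, while the genes lay on opposite sides of the sgTetO array in the comparison given further on.
PLK1: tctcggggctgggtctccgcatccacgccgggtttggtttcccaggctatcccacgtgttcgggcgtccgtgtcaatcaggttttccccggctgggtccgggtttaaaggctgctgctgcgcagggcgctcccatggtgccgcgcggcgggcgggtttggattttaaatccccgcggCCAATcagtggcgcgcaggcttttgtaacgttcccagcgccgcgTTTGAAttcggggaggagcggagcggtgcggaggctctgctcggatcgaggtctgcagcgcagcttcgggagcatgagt
KIF23: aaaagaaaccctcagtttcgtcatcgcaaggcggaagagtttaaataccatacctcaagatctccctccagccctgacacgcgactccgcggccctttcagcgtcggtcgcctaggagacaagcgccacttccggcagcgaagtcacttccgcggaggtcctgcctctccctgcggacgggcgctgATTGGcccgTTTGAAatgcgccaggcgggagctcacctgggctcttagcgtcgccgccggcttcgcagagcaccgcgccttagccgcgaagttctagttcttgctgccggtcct

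Within the members' windows the matches lay close to the gene start. The 36 TTTGAA matches had a median position of -28 relative to the start, and 75% began between -75 and 50, against 31.8% of the 1883 matches in windows of genes on the array. The 61 CCAAT matches had a median of -79, against a median of -97 for 7348 matches in windows of genes on the array. In CCNB2 CCAAT matches at -120, -87 and -54 preceded TTTGAA at -29, and in PLK1 a CCAAT at -73 preceded TTTGAA at -29. CCNB1, NEK2, PTTG1 and KIF20A were among the genes with CCAAT and no TTTGAA, and KIF2C and CENPE had neither. For 7 genes the table holds several windows, some of which overlap, so a match can be counted more than once.

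**Figure D1:**
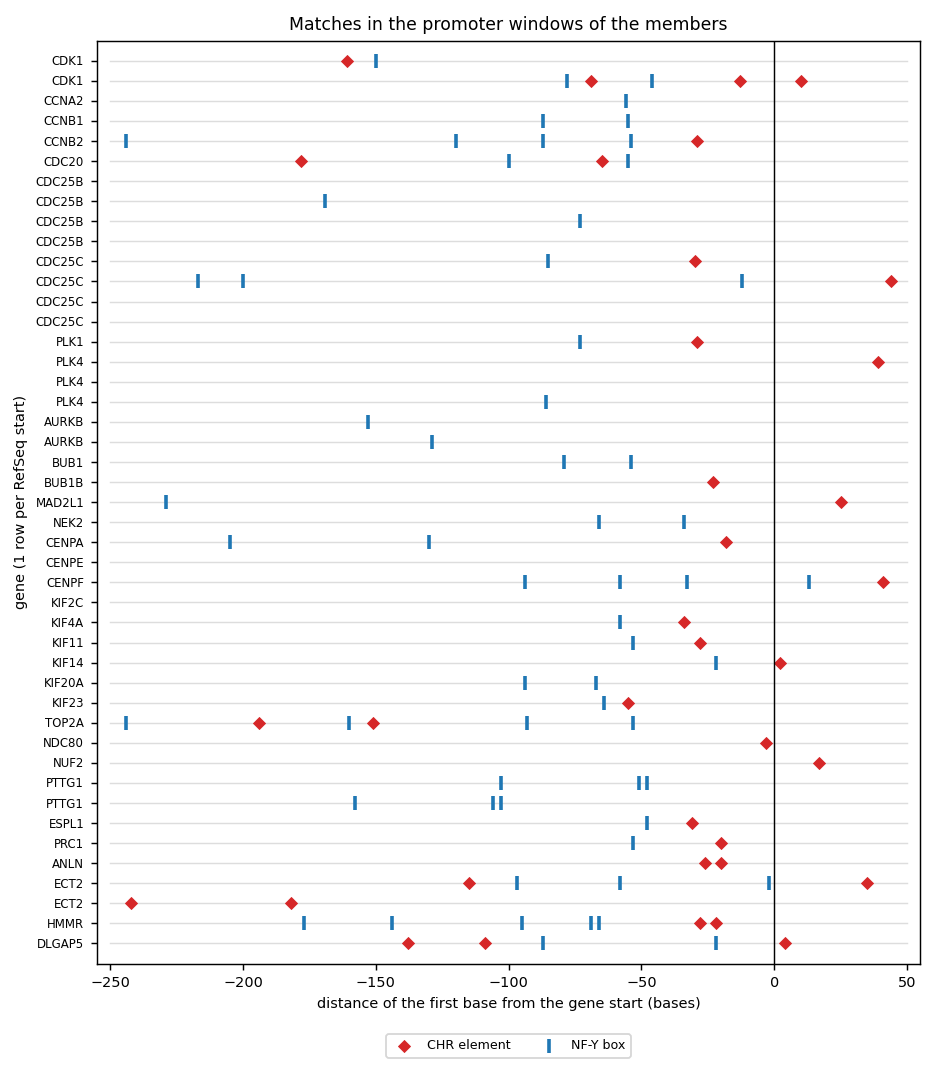
Positions of TTTGAA (CHR element, red diamonds) and CCAAT (NF-Y box, blue bars), on either strand, in the 45 promoter windows of 33 members, in bases from the gene start (vertical line). Most red diamonds sit near the start, with a median of -28, and the blue bars mostly lie before them, with a median of -79.

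The array's values are log2 summaries per probe set, and a difference of 1 is 2-fold. A probe set's brightness depends on its oligonucleotides as well as on the transcript, so levels of different sets are not ranked here. The 27 probe sets for Bacillus transcripts on the chip gave the background scale, and a set counts as above background when it exceeds the highest of them, 3.29 on sgTetOmut and 3.40 on each of the other arrays. HEK293T markers were present: NEFL, NEFM, VIM, KRT8, KRT18, PAX2 and EYA1 had 10 of 10 probe sets above background on every array. Of 32 sets for markers of blood, endothelium, liver, muscle and fibroblasts, 12, 9 and 10 were above background on sgTetOmut, sgTetO and sgIL1RN1~3. PTPRC, CD3E, LYZ, VWF, TEK, ALB, MYH2 and DCN were at background on all arrays, and PECAM1 and TTR rose above it on only some. HBB, CDH5, APOA1, DES and COL1A1 had sets above it on all arrays. These sets read 3.35 to 4.44, apart from a COL1A1 set at 7.08, 7.14 and 7.30 on sgTetOmut, sgTetO and sgIL1RN1~3. Among the HEK293T markers, KRT8 (3.95, 3.95 and 4.32) and PAX2 206229_x_at (4.08, 4.30 and 4.08) were as low. The arrays differed beyond the members as well. A list of 15 interferon genes, also made with earlier results known, had a median difference of -2.00 on sgTetO and -2.24 on sgIL1RN1~3 relative to sgTetOmut. The chip controls for the 5' parts of ACTB and GAPDH read 0.95 and 0.84 higher on sgIL1RN1~3 than on sgTetO, and those for the 3' parts 0.06 higher and 0.01 lower (-0.01). The targeted gene, IL1RN, read 7.01 on sgIL1RN1~3 and 2.28 and 2.23 on sgTetO and sgTetOmut by its set 212657_s_at. Its set 212659_s_at read 3.80, 2.88 and 3.29 on the same arrays, and its other 3 sets were at background on all of them.

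All 38 measured members were read above background. Each had at least 1 probe set above background on every array, a share that was not computed over all named genes. By set, 59 of the 63 passed that level on all arrays, beside 13454 of all 19070 named sets. On sgTetOmut, sgTetO and sgIL1RN1~3 singly, 60, 61 and 59 sets passed it. Over all named sets the share above background was 71.7% to 73.9% per array, and over the members' sets 93.7% to 96.8%. The other 4 sets were CENPF 207331_at and BUB1 215508_at, at background on all arrays, and PLK4 211088_s_at and BUB1 216277_at, above it on only some. Each of these 3 genes had other sets well above background, so the dim sets do not describe the gene's level. By its brightest set, a member read between 5.03 and 12.36 on any array, with a median of 9.67 on sgTetOmut, 9.72 on sgTetO and 9.68 on sgIL1RN1~3. CENPA, the histone that marks centromeres, read 5.09, 5.03 and 5.23 by its own set, 210821_x_at, on sgTetOmut, sgTetO and sgIL1RN1~3. A brighter set annotated to both SLC35F6 and CENPA, 204962_s_at, read 11.77, 11.76 and 11.71 and cannot be assigned to either gene.

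**Figure D2:**
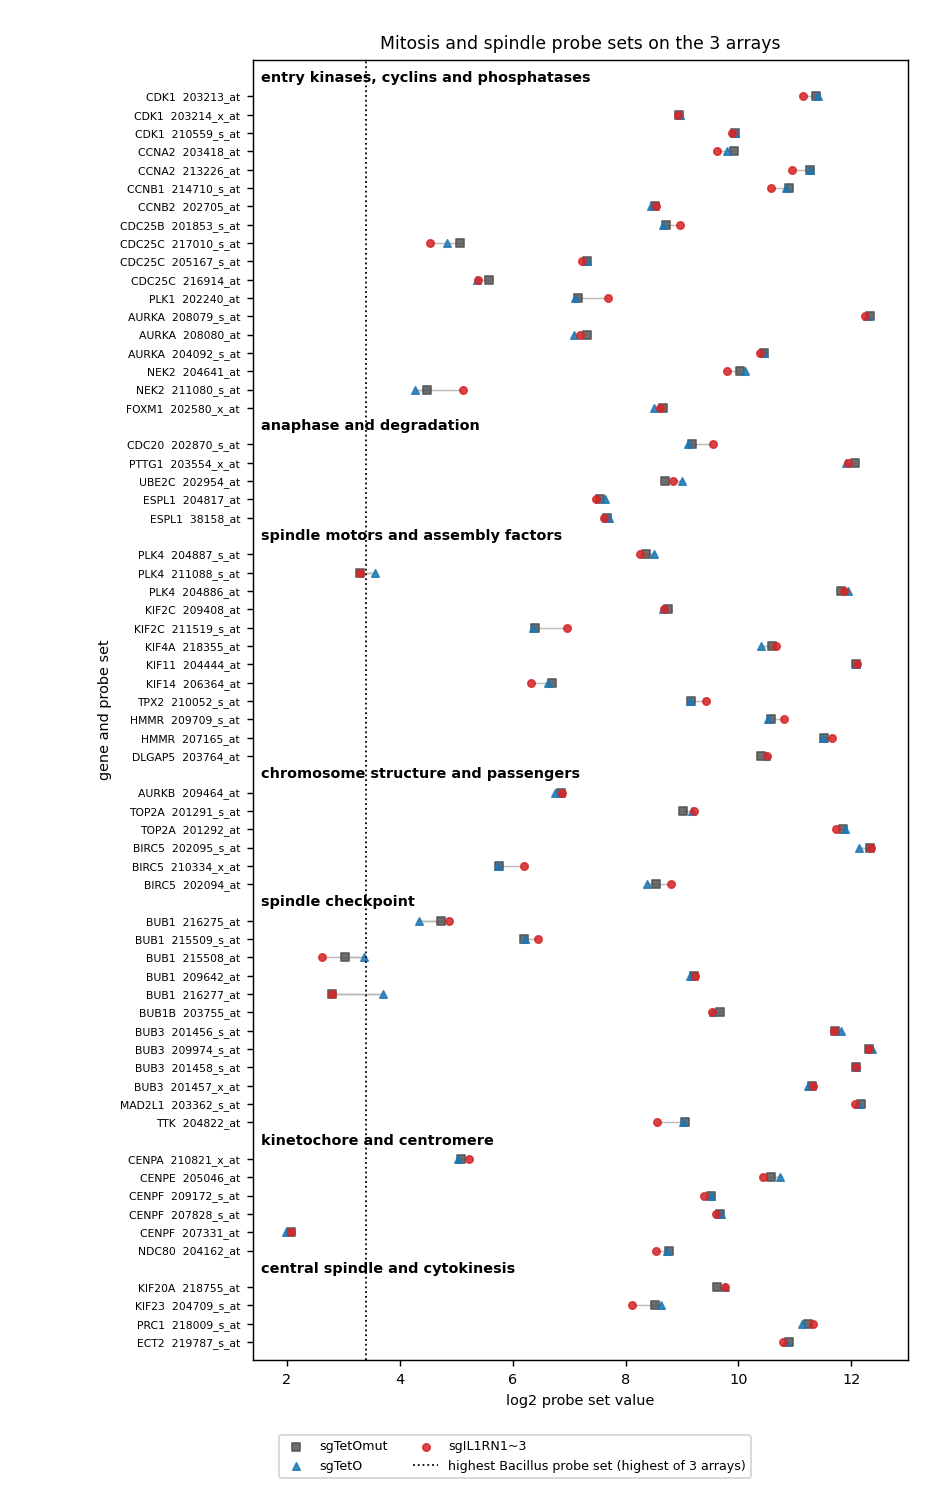
Log2 values (horizontal axis) of the 63 probe sets of 38 mitosis and spindle genes, grouped by role, on the sgTetOmut (grey squares), sgTetO (blue triangles) and sgIL1RN1~3 (red circles) arrays, 1 array each. Nearly all sets lie right of the dotted line at 3.40, the highest Bacillus value, and the symbols of a set mostly lie on or next to each other.

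The members' spread across the 3 arrays was near that of other genes. Of the 59 sets above background, 37, or 62.7%, spanned less than 0.25 log2 units from the lowest to the highest array, against 56.1% of the 13454 named sets above background. These shares were not matched for level. On sgTetOmut the median was 9.16 over the members' sets and 5.49 over all named sets. KIF11, the kinesin that pushes spindle poles apart, read 12.08, 12.09 and 12.11 on sgTetOmut, sgTetO and sgIL1RN1~3 and spanned 0.03. MAD2L1, a checkpoint protein that inhibits CDC20, read 12.17, 12.12 and 12.07. The 4 sets of BUB3, which carries checkpoint kinases to kinetochores, spanned 0.01 to 0.12. No member set reached a difference of 1 log2 unit in any pair of arrays. Of all named sets, 0.0157% were higher and 0.325% lower by that much on sgTetO than on sgTetOmut. On sgIL1RN1~3 0.184% were higher and 0.168% lower than on sgTetO, and 0.121% higher and 0.404% lower than on sgTetOmut.

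Between the control guides the members differed little. The median over the 38 genes, each by its brightest set, was -0.04 for sgTetO minus sgTetOmut, with 14 genes above 0 and 23 below, against -0.01 over all 11963 named genes. The sign of the members' median was not kept under quantile scaling, where it was 0.0036. Of the 63 sets, 1 was at least 0.5 log2 units (1.41-fold) higher on sgTetO, against 0.64% of all named sets, and 0 were lower by that much, against 1.47%. That set was BUB1 216277_at, which read 2.80 on sgTetOmut, 3.70 on sgTetO and 2.80 on sgIL1RN1~3. It stood above background on the sgTetO array alone, so its difference is bounded as at least 1.33-fold, and the other BUB1 sets above background did not show it. Among sets above background on all arrays the differences ran from -0.38 (BUB1 216275_at) to 0.30 (UBE2C). UBE2C, the enzyme that primes ubiquitin chains for the anaphase-promoting complex, read 8.71, 9.01 and 8.84 on sgTetOmut, sgTetO and sgIL1RN1~3. Between the same 2 arrays the interferon list had its median of -2.00.

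The IL1RN guides were set against each control in turn, and these comparisons share the sgIL1RN1~3 array. Relative to sgTetO, 4 member sets were at least 0.5 log2 units higher (6.35% of 63, against 4.38% of all named sets) and 2 were lower (3.17%, against 2.53%). Relative to sgTetOmut, 3 were higher (4.76%, against 2.92%) and 2 were lower (3.17%, against 2.55%). The members' shares are near those of all named sets. The higher sets were those of PLK1, NEK2 (211080_s_at) and KIF2C (211519_s_at) in both comparisons, with BUB1 216275_at relative to sgTetO alone. The lower sets were KIF23 and BUB1 216277_at relative to sgTetO, and TTK and CDC25C 217010_s_at relative to sgTetOmut. With 16 added to the linear values, which damps dim sets, PLK1, NEK2 and KIF2C stayed past the limit relative to sgTetO, at 0.52 each, and no member set passed it relative to sgTetOmut. The median over the member genes was -0.03 relative to sgTetO (18 above 0, 20 below) and -0.04 relative to sgTetOmut (17 above, 21 below), against 0.01 and 0.00 over all named genes. Relative to sgTetOmut it was 0.0014 when all sets of a gene were averaged, so its sign is not settled. Across the sets above background the SD of the differences was 0.27 and 0.24, against 0.12 between the controls. Over all named sets it was 0.28 and 0.28, against 0.21. In whole cultures, fewer cells in mitosis and less transcript per cell cannot be told apart.

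**Figure D3:**
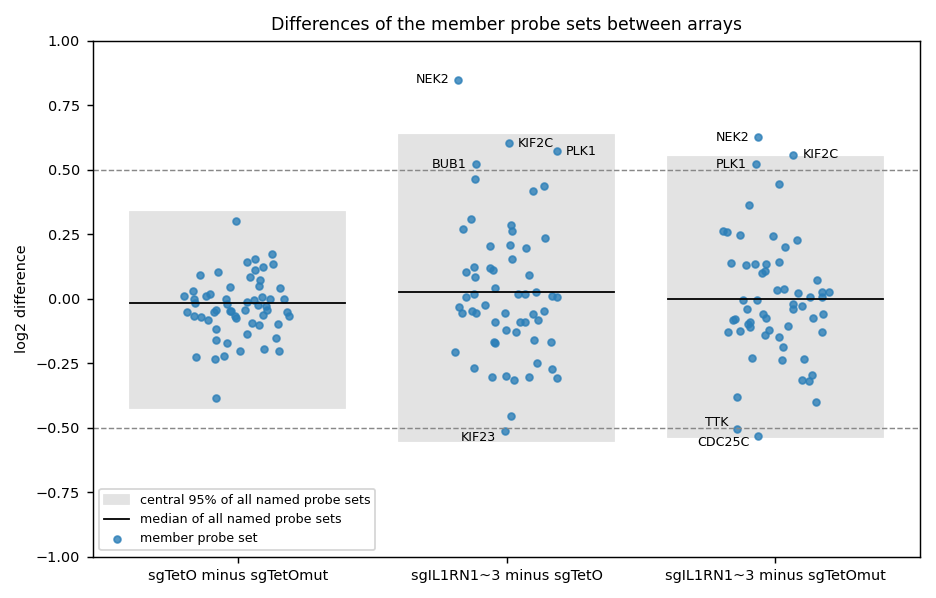
Log2 differences between pairs of arrays for the 59 member probe sets above background on all arrays (points), over the central 95% (grey) and median (line) of the 13454 named probe sets above background. Points past the dashed lines at 0.5 and -0.5 carry their gene's name, and most points lie within the grey range in each comparison.

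Among the genes of mitotic entry, PLK1 read higher on sgIL1RN1~3 than on both controls by the single set of that gene. PLK1, the kinase of centrosome maturation and mitotic entry, read 7.16 on sgTetOmut, 7.11 on sgTetO and 7.68 on sgIL1RN1~3. The control values lay together and the sgIL1RN1~3 value above them, by 0.57 (1.49-fold) and 0.52 (1.44-fold). For scale, the controls differed by an SD of 0.19 over the 100 named sets nearest to it in level. Such a control SD, here and below, is a spread over other sets on 1 pair of arrays. It does not measure the error of a single set. The cyclins that bind CDK1 pointed the other way, below the limit. CCNB1, cyclin B1, read 10.89, 10.85 and 10.58 on sgTetOmut, sgTetO and sgIL1RN1~3, with differences of -0.27 and -0.32 from sgTetO and sgTetOmut. CCNA2, cyclin A2, read 11.26, 11.26 and 10.95 by 213226_at and 9.92, 9.79 and 9.63 by 203418_at. Both CCNA2 sets were lowest on sgIL1RN1~3, by 0.31 and 0.16 relative to sgTetO. CCNB2, cyclin B2, read 8.53, 8.45 and 8.53 and did not share this. CDK1 itself read 11.38, 11.41 and 11.14 by 203213_at, a difference of -0.27 from sgTetO, while its sets 203214_x_at and 210559_s_at differed by -0.05 and -0.06.

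The phosphatases that activate CDK1 and the remaining entry factors went both ways. CDC25B read 8.72, 8.66 and 8.96 on sgTetOmut, sgTetO and sgIL1RN1~3, a difference of 0.31 from sgTetO. CDC25C read 7.32, 7.32 and 7.23 by its brightest set. Its set 217010_s_at read 5.06, 4.84 and 4.53, so that sgIL1RN1~3 was 0.53 below sgTetOmut and 0.31 below sgTetO, and 216914_at read 5.58, 5.37 and 5.39. AURKA, the kinase of centrosomes and spindle poles, differed from sgTetO by -0.03, -0.06 and 0.11 over its 3 sets. FOXM1, a transcription factor of late cell cycle genes, read 8.66, 8.50 and 8.62. NEK2, a kinase of centrosome separation, gave opposite readings. Its bright set 204641_at read 10.03, 10.11 and 9.80, 0.30 below sgTetO, and its dim set 211080_s_at read 4.49, 4.27 and 5.12, which is 0.85 above sgTetO and 0.63 above sgTetOmut. The control SD at the level of the dim set was 0.31.

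Among the spindle checkpoint genes TTK read lower on sgIL1RN1~3 than on both controls, at the edge of the limit. TTK (MPS1), the kinase that starts checkpoint signalling, read 9.06 on sgTetOmut, 9.01 on sgTetO and 8.55 on sgIL1RN1~3. The controls were 0.05 apart and sgIL1RN1~3 lay 0.51 and 0.46 below them, with a control SD of 0.18 at that level. Under quantile scaling, cyclic loess or 16 added to the linear values the difference from sgTetOmut was -0.48, -0.50 and -0.49, short of the limit. BUB1B, the checkpoint protein BUBR1, read 9.67, 9.55 and 9.52. BUB1, a checkpoint kinase of the kinetochore, read 9.20, 9.14 and 9.24 by its brightest set, and its dimmer sets 215509_s_at and 216275_at read 0.24 and 0.52 above sgTetO. The value of 216275_at on sgTetO was itself 0.38 below sgTetOmut, so that this set was only 0.14 above sgTetOmut. Its difference from sgTetO was 0.31 to 0.49 under the same 3 settings, short of the limit.

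For the 4 members of the kinetochore and centromere the differences were smaller than 0.31 in every set above background. CENPE, a kinesin that carries chromosomes to the spindle equator, read 10.58, 10.74 and 10.43 on sgTetOmut, sgTetO and sgIL1RN1~3. NDC80, which binds microtubules at the kinetochore, read 8.77, 8.74 and 8.53. CENPF read 9.68, 9.69 and 9.60 by 207828_s_at and 9.52, 9.52 and 9.39 by 209172_s_at. The 2 CENPF sets thus gave nearly the same small difference, -0.09 and -0.13 from sgTetO.

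Spindle motors and assembly factors went both ways. TPX2, which activates AURKA on the spindle, read 9.16, 9.13 and 9.42 on sgTetOmut, sgTetO and sgIL1RN1~3, and HMMR, a microtubule-binding protein, read 0.27 and 0.15 above sgTetO by its 2 sets. KIF14, a kinesin of cytokinesis, read 6.71, 6.63 and 6.32. KIF2C, a kinesin that shortens microtubules at centromeres, read 8.76, 8.66 and 8.68 by its bright set 209408_at, with no separation of sgIL1RN1~3. Its dimmer set 211519_s_at read 6.40, 6.36 and 6.96, 0.60 above sgTetO and 0.56 above sgTetOmut. KIF4A, a chromosome-bound kinesin, differed by 0.26 from sgTetO but by 0.07 from sgTetOmut, since sgTetO was the low array. PLK4, the kinase of centriole duplication, read 11.82, 11.94 and 11.86 by its brightest set, and DLGAP5, a spindle protein, 10.40, 10.49 and 10.50.

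Of the chromosome-bound members, BIRC5 read higher than sgTetO in all of its 3 sets. BIRC5 (survivin), a subunit of the chromosomal passenger complex, read 12.33, 12.13 and 12.34 on sgTetOmut, sgTetO and sgIL1RN1~3 by 202095_s_at. It differed from sgTetO by 0.21, 0.42 and 0.46 over 202095_s_at, 202094_at and 210334_x_at. The same sets differed from sgTetOmut by 0.01, 0.26 and 0.45, with control SDs of 0.07, 0.33 and 0.19 at their levels. Relative to sgTetOmut only 210334_x_at thus differed by more than its control SD, which is a scale and not an error. AURKB, the kinase of that complex, read 6.86, 6.76 and 6.88. TOP2A, the topoisomerase that untangles sister chromatids, read 11.85, 11.89 and 11.72 by 201292_at and 9.01, 9.18 and 9.21 by 201291_s_at, which differ in direction.

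Among the genes of anaphase, CDC20 differed most. CDC20, the activator of the anaphase-promoting complex, read 9.18 on sgTetOmut, 9.11 on sgTetO and 9.54 on sgIL1RN1~3, which is 0.44 above sgTetO and 0.36 above sgTetOmut and under the limit, with a control SD of 0.20 at that level. PTTG1 (securin), the inhibitor of separase, read 12.07, 11.90 and 11.94 and was highest on sgTetOmut. ESPL1 (separase), which cuts cohesin, differed from sgTetO by -0.17 and -0.09 over its 2 sets. Of the central spindle and cytokinesis genes, KIF23 read lower on sgIL1RN1~3 than on both controls. KIF23, a motor of the centralspindlin complex, read 8.52, 8.63 and 8.12 on sgTetOmut, sgTetO and sgIL1RN1~3, which is 0.51 below sgTetO (1.43-fold) and 0.40 below sgTetOmut, with a control SD of 0.17. With 16 added to the linear values its difference from sgTetO was -0.49, short of the limit. PRC1, which bundles the microtubules of the central spindle, read 11.22, 11.12 and 11.33, KIF20A read 9.62, 9.76 and 9.77, and ECT2, the activator of RHOA in cytokinesis, read 10.90, 10.85 and 10.79.

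By the requirement that sgIL1RN1~3 lie at least 0.5 log2 units beyond both controls, 3 sets of PLK1, KIF2C and NEK2 were above (4.76% of 63, against 1.91% of all named sets) and 0 were below (against 1.22%). On sgTetO 1 member set was above both other arrays (against 0.304%) and 0 were below (against 0.367%), and on sgTetOmut 0 were above (against 0.65%) and 0 below (against 0.136%). With 16 added to the linear values the sets of PLK1, KIF2C and NEK2 differed from sgTetOmut by 0.48, 0.48 and 0.40, so that none met the requirement. Only the PLK1 set is the sole set of its gene. Measured genes were also split by TTTGAA in a promoter window, each read by its brightest set alone. The 21 with it differed from sgTetO by -0.51 to 0.57 with a median of -0.06. The 10 without it differed by -0.31 to 0.31 with a median of 0.01. Dimmer sets of genes without TTTGAA lay outside that range, at 0.85 for NEK2, 0.60 for KIF2C, and 0.52 and -0.91 for BUB1. The ranges thus depend on the choice of set, and a link of TTTGAA to the differences was not tested. PLK1 and KIF23 mark both ends of the range with TTTGAA. Their windows were picked for printing after these values were seen, so their place there carries no weight.

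By a pooled SD, the probe sets of 1 gene disagreed nearly as much as sets of different genes, though few genes carried much of it. For the 14 members with several sets above background, the pooled SD within a gene was 0.23 for sgIL1RN1~3 minus sgTetO, beside an SD of 0.27 over all 59 member sets, and 0.11 beside 0.12 for sgTetO minus sgTetOmut. Over the 2976 named genes with several such sets the within-gene SD was 0.25 and 0.16. NEK2 showed the widest gap, with its sets 1.15 apart, followed by KIF2C with 0.59 and BUB1 with 0.42. The sets of CENPF, ESPL1 and HMMR were only 0.04, 0.08 and 0.12 apart. The members' pooled SD for sgIL1RN1~3 minus sgTetO therefore leans heavily on NEK2 and does not describe a typical member. The dimmest set of a gene exceeded the brightest in its difference from sgTetO in 10 of the 14 members, by a median of 0.15, and in 55.8% of the 2976 genes, by a median of 0.04. For sgTetO minus sgTetOmut this held in 5 of 14 and in 47.7%. The 5' chip controls given above moved with the same array. Where on its transcript each probe set lies was not used here, and the part of these controls in the differences was not tested.

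**Figure D4:**
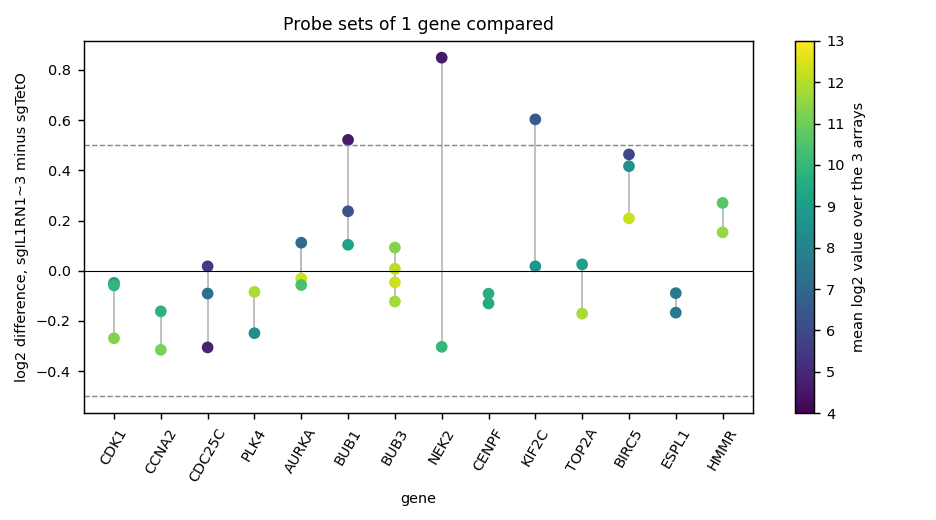
Log2 difference of sgIL1RN1~3 minus sgTetO for each probe set above background of the 14 members with several such sets, coloured by the set's mean log2 value, with dashed lines at 0.5 and -0.5. The sets of NEK2, KIF2C and BUB1 lie far apart, with the dark (dim) set on top, while those of CENPF, ESPL1 and HMMR lie together.

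The wider machinery of mitosis was read from 6 further lists, which hold 130 genes, 110 of them measured by 186 probe sets. Of the 110, 107 had a set above background on every array, a share that was not computed over all named genes. By set, 178 of the 186 passed it on every array, beside 13454 of all 19070 named sets. Relative to sgTetO, 11 of the 186 sets were at least 0.5 log2 units higher on sgIL1RN1~3 (5.91%) and 8 were lower (4.30%), against the 4.38% and 2.53% of all named sets. Relative to sgTetOmut, 9 were higher (4.84%, against 2.92%) and 7 lower (3.76%, against 2.55%). On sgTetO relative to sgTetOmut 1 was higher (0.538%, against 0.64%) and 0 were lower (against 1.47%). The list medians for sgIL1RN1~3 minus sgTetO were -0.02 for kinetochore and checkpoint, -0.14 for the anaphase-promoting complex, 0.00 for condensin and cohesin, 0.00 for spindle, centrosome and cytokinesis, 0.10 for entry regulators and 0.07 for the transcription factors of mitotic genes. Over all named genes that median was 0.01.

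The sets of these lists past 1 log2 unit were dim. CCNF (cyclin F), a substrate receptor of a ubiquitin ligase, read 4.76, 4.57 and 5.58 on sgTetOmut, sgTetO and sgIL1RN1~3 by 204827_s_at, 1.01 above sgTetO. Its bright set 204826_at read 11.27, 11.18 and 11.41, a difference of 0.24. ANAPC5, a subunit of the anaphase-promoting complex, read 1.04 above sgTetOmut by 208721_s_at, which was at background on both controls, so it was at least 1.12-fold higher there. The other ANAPC5 sets differed from sgTetOmut by 0.11, 0.44 and 0.03. Other genes with sets past the limit, chosen after their values were seen, had a dim set apart from a bright one in either direction. CDC25A, a CDK-activating phosphatase, differed from sgTetO by 0.86 in its dim set and 0.19 in its bright one, and WEE1, the kinase that inhibits CDK1, by 0.55 and 0.04. NFYB, a subunit of NF-Y, differed by -0.63 in its dimmest set and 0.01 in its brightest, and CDC27, a subunit of the anaphase-promoting complex, by -0.60 and -0.14. In the condensin and cohesin list the 4 of 39 sets past the limit relative to sgTetO were lower (10.3%, against 2.53% of all named sets), those of SMC3, NIPBL, PDS5A and SMC4, at -0.58, -0.82, -0.69 and -0.62. The other sets of these genes differed from sgTetO by -0.33 to 0.20. The SMC4 set was also 0.52 higher on sgTetO than on sgTetOmut. In the kinetochore and checkpoint list the 2 of 27 sets past the limit relative to sgTetO were lower (7.41%, against 2.53%). They were CENPC and CENPU, at -0.56 and -0.54. In the spindle list the 4 of 52 past it were higher (7.69%, against 4.38%), with a list median of 0.00. Of these TUBGCP2, a subunit of the gamma-tubulin ring, gave 2. Its 3 sets differed from sgTetO by 0.93, 0.63 and 0.29.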

How the data were processed

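Gene expression was measured on 3 single-channel Affymetrix arrays, 1 per guide. The values deposited by the authors are on a log2 scale, taken from their range of 1.36 to 14.5, for 22277 probe sets. Per the submitters' processing notes the tool was affy. Its version and the methods of background correction, normalization and summary were not stated there. Sorted values of the arrays lay within 0.104 of their mean, so a shift common to all genes would not be seen. GEO's annotation paired 19070 sets with a single symbol and 1043 with several, and it did not list 2164.

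All sets of each member were used, and a gene was represented by its set of highest average. A set was counted when a pair of arrays differed by at least 0.5 log2 and the higher value exceeded the highest of 27 Bacillus sets on its array. With 1 array per guide no test was possible, and precision is limited by that number. The members and lists were chosen with earlier results of these data known. By the rule for named genes, values were written out for members with a set past 0.5 log2 or on a fixed list, and for sets of other mitosis lists past 1 log2. Values of other members and of called sets in those lists were added after they were seen. Alternatives were other scalings, minimum levels, ways of choosing a gene's set, and motif letters. Scaling used limma 3.58.1 in R 4.3.3, the rest Python 3.11.15, numpy 2.4.6 and pandas 2.3.3. A check of the counting used simulated data. It gave no rate of false calls near 0.5 log2 or in dim sets.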

Additional observations from a re-analysis of the deposited data

How the results depend on the processing

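With 1 array per guide no replicate can be left out. No paired analysis was possible because each guide had 1 array. A count was taken as stable within 1.5 times, a median when it moved by less than the within-gene SD over the root of the number of genes, and a motif share within its exact 95% binomial interval. Of 37 alternative values for the counts, medians and motif shares, 25 were stable. Adding 16 to the linear values, which damps dim sets, left 0 member sets past 0.5 log2 for sgTetO minus sgTetOmut, 3 for sgIL1RN1~3 minus sgTetO and 0 for sgIL1RN1~3 minus sgTetOmut, against 0.671%, 3.28% and 2.21% of all named sets. Requiring the higher value to reach the median of all sets left 0, 3 and 3, against 0.771%, 4.30% and 3.05%. Without sets ending in _s_at or _x_at, which can bind several transcripts, 31 member sets were left. Of these, 3 were past 0.5 log2 for sgIL1RN1~3 minus sgTetO and 2 for sgIL1RN1~3 minus sgTetOmut. The share of all named sets was not computed under that filter, so these 2 counts have no scale beside them. The median over member genes for sgTetO minus sgTetOmut was 0.0036 under quantile scaling and -0.0090 under cyclic loess, so its sign is not settled. For sgIL1RN1~3 minus sgTetO it was -0.066 under quantile scaling, and for sgIL1RN1~3 minus sgTetOmut it was 0.0014 with the mean of all sets of a gene. Of 36 alternative values for single sets past the limit, 23 stayed past it, 13 fell short and 0 changed sign. TTK, at -0.48 to -0.50, and BUB1 216275_at, at 0.31 to 0.49, fell short under quantile scaling, cyclic loess and 16 added. The cause was not tested. Signal over background limits the 4 sets that were not above it on every array.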

Other observations

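Genes that restrain division were read from a list of 12, of which 11 were measured by 22 probe sets. Their median difference was 0.00 for sgIL1RN1~3 minus sgTetO and -0.05 for sgIL1RN1~3 minus sgTetOmut. CDKN1A (p21), an inhibitor of cyclin-dependent kinases, was the 1 of 22 sets past 0.5 log2 in those comparisons, or 4.55%, near the 4.38% and 2.92% of all named sets that were higher relative to sgTetO and sgTetOmut. It read 9.10 on sgTetOmut, 9.10 on sgTetO and 9.63 on sgIL1RN1~3, 0.53 above each control. The 59 member sets above background were highest on sgTetOmut, sgTetO and sgIL1RN1~3 in 33.9%, 25.4% and 40.7% of cases, close to the 32.9%, 25.8% and 41.3% of all named sets above background. They were lowest on sgTetOmut in 7 cases (11.9%), on sgTetO in 25 (42.4%) and on sgIL1RN1~3 in 27 (45.8%). Over all named sets above background the shares of lowest values were 27.6%, 39.1% and 33.3%. In all of these shares a tie was counted for the first array in the order sgTetOmut, sgTetO, sgIL1RN1~3. Of all named sets, 8.08% read the same on both controls, so the shares for sgTetOmut are raised by ties.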
